A study of Mus musculus with 4 samples.

Results

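The unfolded protein response and the integrated stress response were examined in mouse bone marrow neutrophils as a module of 32 genes, found by matching their symbols to the gene names of the deposited count table. The table holds 54532 genes, and 33 of its rows carried these symbols, because Ddit3 is annotated under 2 identifiers. The second Ddit3 row had 0 counts in every library and was left aside. All 32 genes passed the filter on low counts and are among the 13479 genes tested. They were divided by role into 6 stress sensors and transcription factors, 14 chaperones and folding enzymes of the endoplasmic reticulum (ER), 4 genes of ER-associated degradation and 8 targets of the transcription factor ATF4.

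RNA was sequenced from bone marrow derived neutrophils of wild-type (WT) mice, in a series on how amyloid-beta 40 (Aβ40) leads these cells to form extracellular traps. The control group consisted of 2 libraries from cells given DMSO, a solvent. The treated group consisted of 2 libraries from cells that received 20 µg/ml of Aβ40, the amyloid peptide released from its precursor by secretases, during 4 h. Strain, age and the number of animals are not in the labels, and nothing there states that replicates are different mice or cultures. The p-values thus reflect the spread among 4 libraries, possibly a technical one.

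The ER folds proteins that are bound for secretion, for membranes and for granules. When unfolded proteins build up there, the sensors IRE1 (gene Ern1), PERK (Eif2ak3) and ATF6 leave the chaperone BiP and start the unfolded protein response, which raises chaperones and degradation factors. PERK also phosphorylates the initiation factor eIF2-alpha. Other kinases do the same on amino acid shortage or viral RNA, and this shared arm, the integrated stress response, favours translation of ATF4 and thereby the genes of amino acid supply. Developing neutrophils make large amounts of granule protein through the ER, while mature ones make little. Gene counts report transcript levels only: Xbp1 splicing, eIF2-alpha phosphorylation and ATF6 cleavage were not measured.

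Libraries held between 17212264 and 19524125 counts, so that a single count was worth 0.0523 to 0.0585 CPM, the count scaled to the size of the library with TMM factors. Neutrophil markers were all detected: the 15 listed summed to 144243 and 103232 CPM in DMSO 1 and 2, and to 149187 and 141276 CPM in Aβ40 1 and 2. DMSO 2 was thus lowest in this sum. Some lists of markers of other blood cells differed more between the groups than the module did. Median log2 fold changes were 1.62 for 13 B cell genes and 1.20 for 10 eosinophil genes. They were 1.31 for 13 genes of T and natural killer cells and 0.46 for 8 plasma cell genes. Medians were smaller elsewhere, at 0.14 for 11 monocyte and macrophage genes and -0.03 for 9 erythroid genes. The monocyte and macrophage list was split, with 8 genes above 0 and 3 below. The scarce C1qa, C1qb, C1qc and Mrc1 were at 1.35, 1.62, 1.39 and 1.56, and Csf1r was at -0.25. In bulk RNA, more cells of a type and more RNA per cell cannot be told apart.

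Levels were compared between genes in FPKM, which divides by gene length as well as library size. The highest level belonged to Pdia3, a disulfide isomerase that works with the lectin chaperones, with 155 ± 35.7 FPKM with DMSO and 162 ± 6.80 FPKM with Aβ40 (SD, n = 2 each). Hspa5, the gene of BiP, followed with 130.5 ± 23.2 and 163 ± 4.94 FPKM, and Atf4 with 134 ± 30.4 and 151 ± 17.3 FPKM (SD, n = 2 each). The library values of Pdia3 and Atf4 overlapped between the groups, and those of Hspa5 did not. Calr, Hsp90b1, Nars, Herpud1, Canx, Pdia6 and Asns came next in mean FPKM over the 4 libraries. At the lower end stood Ern1, at 3.69 ± 0.206 and 2.48 ± 0.516 FPKM, and Chac1, a glutathione-degrading enzyme and classical ATF4 target, at 1.57 ± 0.834 and 1.26 ± 0.353 FPKM (SD, n = 2 each). The sensors Eif2ak3, Atf6 and Ern1 ranked 25, 29 and 31 of the 32 genes by mean FPKM. In all, the 32 genes took between 0.381% and 0.421% of the counts of a library.

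**Figure D1:**
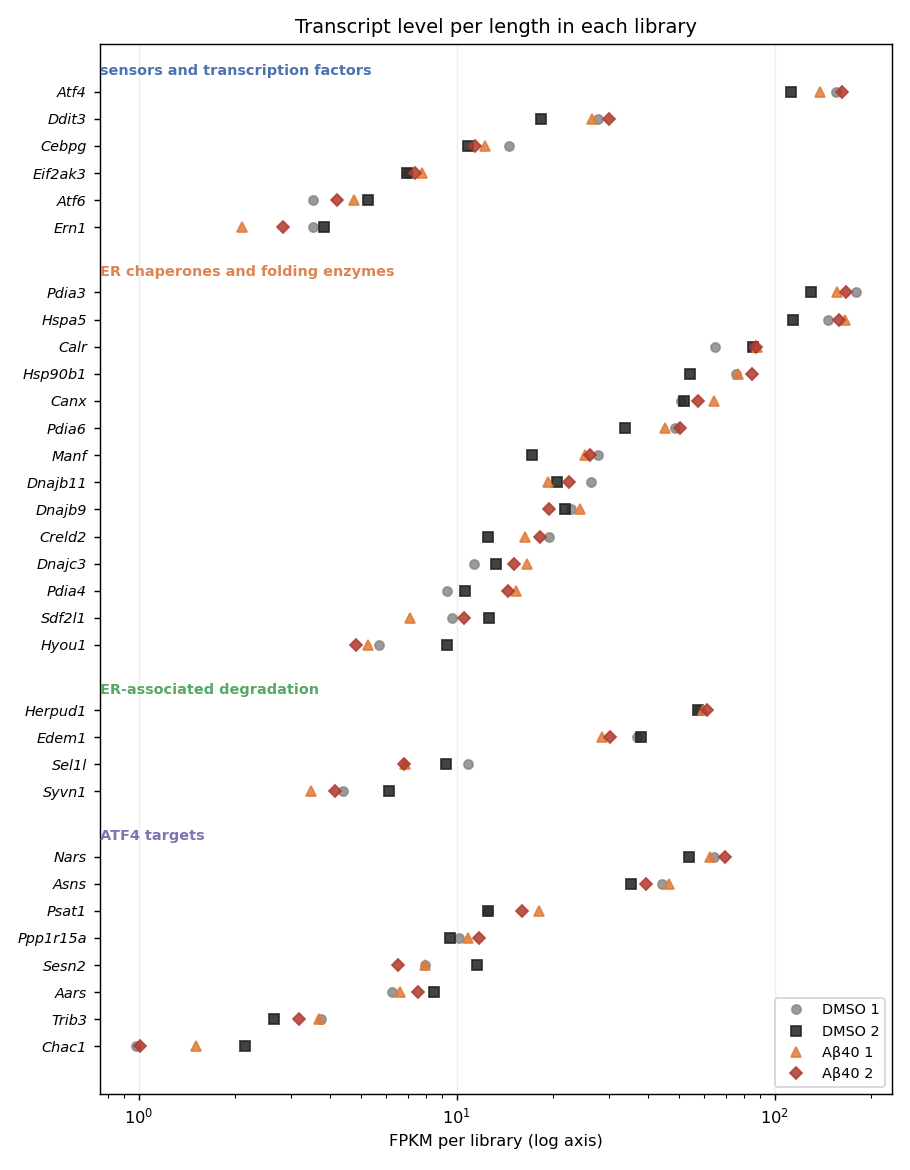
FPKM of the 32 genes in each of the 4 libraries on a log axis, by role and in order of mean level; each point is 1 library. Values run from 0.978 FPKM for Chac1 to 181 FPKM for Pdia3, both in DMSO 1.

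No gene of the module was called between Aβ40 and DMSO: 0 of 32 passed an adjusted p under 0.05 in either direction (edgeR quasi-likelihood test, Benjamini-Hochberg over 13479 genes), where 0.126% of all genes tested were called. The smallest adjusted p was 0.328, for Sel1l. DESeq2 also called 0 of 32, with a lowest adjusted p of 0.259. At an unadjusted p under 0.05, 2 genes were higher, Pdia4 and Psat1, against 6.51% of all genes tested, and 3 were lower, Sel1l, Ern1 and Hyou1, against 5.72%. In 10 of the 32 genes each Aβ40 library exceeded both DMSO libraries, a pattern seen in 23.2% of all genes. In 5 both lay below, against 21.9% of all genes. The median log2 fold change (Aβ40 minus DMSO) of the module was 0.12, against 0.01 for all genes tested. It was -0.032 without DMSO 2, with 15 genes above 0 and 17 below, and 0.19 without DMSO 1.

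The confidence intervals show, for each gene taken singly, how large a change could have been missed. For 28 of the 32 genes the 95% interval of the log2 fold change lay within a 2-fold change in either direction. The exceptions were Ern1, Hyou1, Pdia4 and Chac1, of which Chac1 was the scarcest, with an interval from -1.49 to 0.89. For 9 genes the interval also lay within a 1.5-fold change. Of all 13479 genes tested, 7617 had an interval within 2-fold and 2103 within 1.5-fold. Of the 10447 genes in the module's range of mean CPM, 7436 and 2051 did. A p that misses the threshold does not show that the groups were alike.

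**Figure D2:**
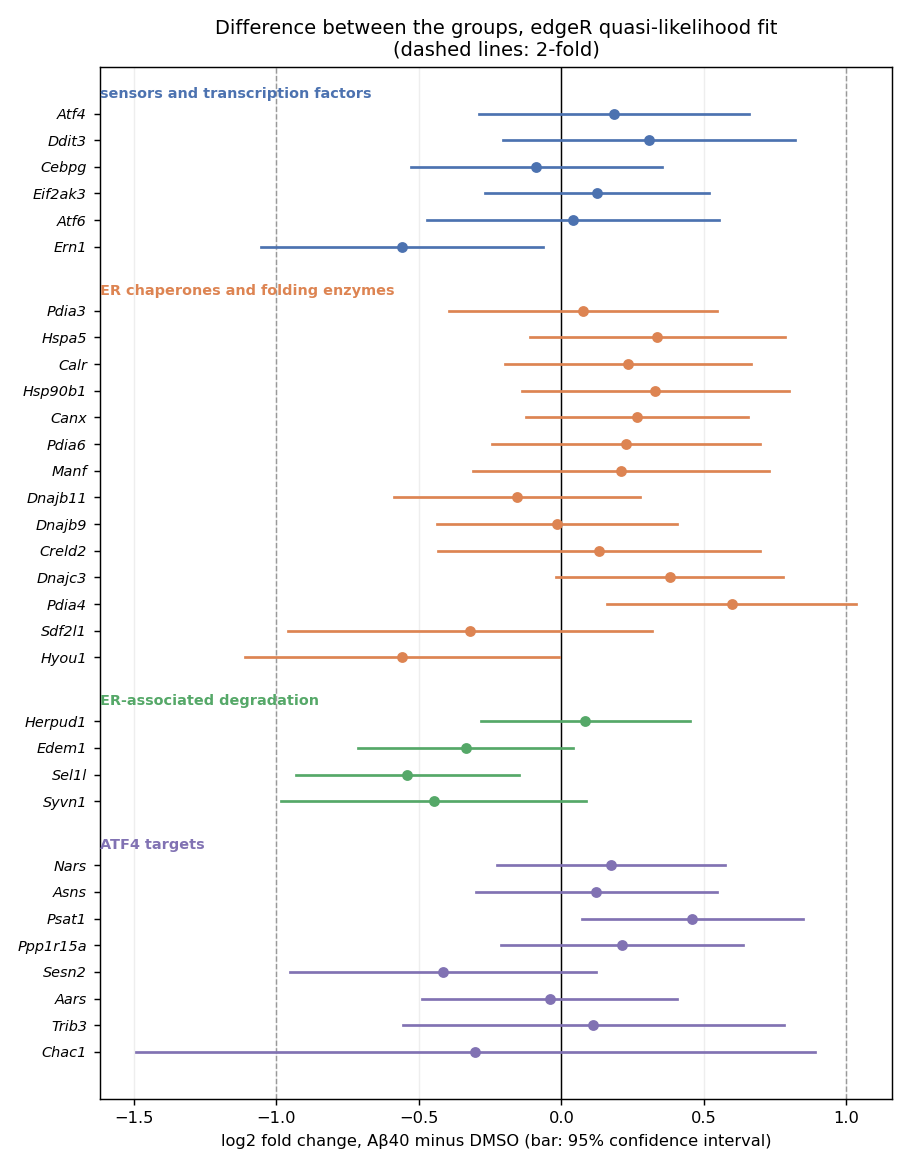
Log2 fold change of each gene, Aβ40 minus DMSO, with its 95% confidence interval from the edgeR quasi-likelihood fit, by role; dashed lines mark a 2-fold change. Points run from -0.56 for Hyou1 to 0.60 for Pdia4, and 4 of the 32 intervals cross a dashed line.

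Among the sensors, Ern1 differed most. It encodes IRE1, the kinase and nuclease that splices Xbp1 (ENSMUSG00000020715, mm10 chromosome 11, 106394650 to 106487852). Ern1 stood at 29.1 and 31.5 CPM with DMSO and at 17.5 and 23.5 CPM with Aβ40. Both Aβ40 libraries were below both DMSO libraries, and the log2 fold change was -0.56 (SE 0.22, Benjamini-Hochberg adjusted p = 0.371 by edgeR). Eif2ak3, the gene of PERK, was nearly level, at 42.6 and 42.2 CPM with DMSO and 47.5 and 44.9 CPM with Aβ40, a log2 fold change of 0.12 with a 95% interval from -0.27 to 0.52. Atf6 spread more within DMSO, at 32.6 and 48.8 CPM, than it differed from Aβ40, at 44.6 and 39.2 CPM. Its log2 fold change was 0.04 (SE 0.23), and -0.03 with scaling by library size only.

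The transcription factors downstream of the sensors shared a low value in DMSO 2. Atf4 was at 368 CPM in DMSO 1 and 267 CPM in DMSO 2, and at 332 and 389 CPM in Aβ40 1 and 2. Its log2 fold change was 0.18 (SE 0.21), and -0.04 without DMSO 2. Ddit3 encodes CHOP, a factor of prolonged ER stress linked to cell death. It was at 48.0 and 31.7 CPM with DMSO and at 46.4 and 52.3 CPM with Aβ40, a log2 fold change of 0.31 (SE 0.23), which was 0.030 without DMSO 2 and 0.64 without DMSO 1. Cebpg, a dimer partner of ATF4, was at 82.2 and 61.0 CPM with DMSO and between those values with Aβ40, at 70.0 and 64.9 CPM. In each of these 3 genes the groups overlapped. The Ddit3 gene overlaps Mars on the other strand, which held 87.7% as many counts, so its level is uncertain where strand was not used in counting.

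The ER chaperones and folding enzymes had a median log2 fold change of 0.22, with 10 of 14 above 0 and 0 called. The summed level of the 14 genes was 2512 CPM in DMSO 1, 2109 CPM in DMSO 2, and 2682 and 2680.0 CPM in Aβ40 1 and 2. DMSO 2 was the lowest of the 4 in this sum. Without DMSO 2 the median was -0.04, with 6 of 14 above 0, and without DMSO 1 it was 0.30, with 12 of 14 above 0. The sign of this median changed when DMSO 2 was left out.

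Pdia4, a disulfide isomerase with several catalytic domains, was the highest of the module in log2 fold change (ENSMUSG00000025823, chromosome 6, 47796141 to 47813430). It stood at 22.4 and 25.6 CPM with DMSO and at 37.4 and 35.3 CPM with Aβ40. The groups did not overlap, at a log2 fold change of 0.60 (SE 0.19, 95% interval from 0.16 to 1.04, Benjamini-Hochberg adjusted p = 0.330 by edgeR). Whichever library was left out, the log2 fold change of Pdia4 lay between 0.50, without DMSO 1, and 0.69, without DMSO 2.

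Hspa5, the central ER chaperone and the usual reporter of ER stress (ENSMUSG00000026864, chromosome 2, 34771970 to 34777547), stood at 624 and 485 CPM with DMSO and at 717 and 683 CPM with Aβ40. Both Aβ40 libraries were above both DMSO libraries, but DMSO 1 lay closer to them than to DMSO 2. The log2 fold change was 0.34 (SE 0.20, 95% interval from -0.11 to 0.78), 0.15 without DMSO 2 and 0.53 without DMSO 1. Hsp90b1, the ER member of the Hsp90 family, also had DMSO 2 lowest and DMSO 1 next, at 307 and 219 CPM with DMSO and 314 and 346 CPM with Aβ40. Its log2 fold change was 0.33 (SE 0.21), 0.09 without DMSO 2 and 0.59 without DMSO 1.

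The lectin chaperones, which hold glycoproteins during folding, were similar. Canx, calnexin, was at 238 and 244 CPM with DMSO and 307 and 273 CPM with Aβ40, a log2 fold change of 0.27 (SE 0.17). Calr, calreticulin, was at 188 and 247 CPM with DMSO and 258 and 254 CPM with Aβ40, so that DMSO 2 here sat beside the Aβ40 libraries. Its log2 fold change was 0.23 (SE 0.19), and 0.048 without DMSO 1. Dnajc3, a co-chaperone of BiP, was at 58.6 and 68.8 CPM with DMSO and 87.2 and 78.7 CPM with Aβ40, a log2 fold change of 0.38 (SE 0.18). In each of these 3 genes the groups did not overlap and the sign held whichever library was left out.

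Pdia3, Pdia6, Creld2 and Manf, by contrast, changed sign with DMSO 2. Manf, a small secreted ER protein, was at 98.1 and 60.9 CPM with DMSO and at 90.5 and 93.1 CPM with Aβ40. DMSO 1 was the highest library and DMSO 2 the lowest, giving a log2 fold change of 0.21 (SE 0.23), -0.11 without DMSO 2 and 0.59 without DMSO 1. Creld2, also a secreted ER protein, had the same order at 26.7, 17.2, 22.8 and 25.3 CPM in DMSO 1, DMSO 2, Aβ40 1 and Aβ40 2. Part of Manf is shared with Rbm15b on the same strand, which held 23.1% as many counts, so its level is uncertain.

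Hyou1 ran the other way. It encodes a nucleotide exchange factor for BiP (ENSMUSG00000032115, chromosome 9, 44379490 to 44392369) and stood at 41.3 and 67.7 CPM with DMSO and at 38.7 and 35.3 CPM with Aβ40. The Aβ40 libraries were below both DMSO libraries, with DMSO 2 far above the other 3. The log2 fold change was -0.56 (SE 0.24), -0.17 without DMSO 2 and -0.87 without DMSO 1. Sdf2l1, a partner of the BiP co-chaperone Dnajb11, was at 10.7 and 14.1 CPM with DMSO and at 8.01 and 11.8 CPM with Aβ40, with overlapping groups. Dnajb11 and Dnajb9, co-chaperones of BiP, were at -0.16 (SE 0.19) and -0.02 (SE 0.19).

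**Figure D3:**
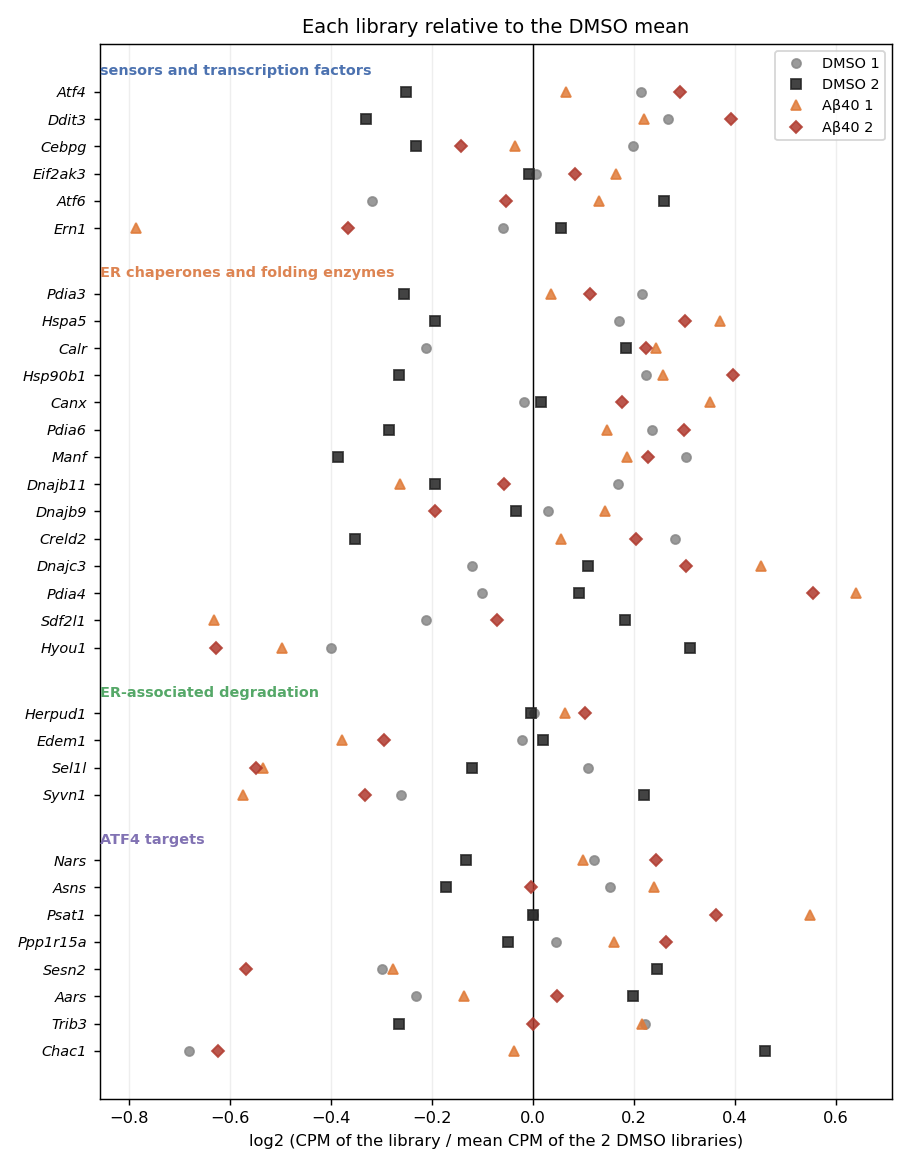
Log2 ratio of each library's CPM to the mean CPM of the DMSO libraries, by role; each point is 1 library and 0 is the DMSO mean. DMSO 2 is the lowest point in 15 of 32 genes, among them Hspa5, Hsp90b1, Manf, Atf4 and Ddit3, and both Aβ40 points lie left of both DMSO points for Sel1l, Edem1, Syvn1, Ern1 and Hyou1.

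ER chaperone promoters are known for the ER stress element, a CCAAT box bound by NF-Y and, 9 bases on, CCACG, bound by ATF6. It was searched on both strands from 250 bases before to 50 after the RefSeq start (GRCm38.p6), in a table that held 28 of the 32 genes. An exact element was found for 8 genes, Hspa5, Hsp90b1, Dnajc3, Calr, Canx, Pdia6, Creld2 and Syvn1, or 27.6% of the module's promoters, against 0.119% of all 32851 promoters in the table. A second form, ATTGG and CCACG 1 base apart, was found for Herpud1 and Dnajb11 and in 0.0365% of all promoters. No module promoter had the unfolded protein response element TGACGTGG, present in 0.676% of all. A match describes letters, not a bound site. The sequences below are those of genes with non-overlapping groups, read on the gene's strand, with the match in capitals. A match that begins with CGTGG is the element on the other strand.

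Hspa5 (chr2:34772005-34772063, plus strand): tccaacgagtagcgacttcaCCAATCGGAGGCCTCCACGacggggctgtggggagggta
Hsp90b1, distal (chr10:86705618-86705676, minus strand): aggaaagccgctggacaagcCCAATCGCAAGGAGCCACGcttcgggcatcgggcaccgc
Hsp90b1, proximal (chr10:86705513-86705571, minus strand): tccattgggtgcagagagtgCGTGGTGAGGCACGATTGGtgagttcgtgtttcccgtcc
Calr (chr8:84847055-84847113, minus strand): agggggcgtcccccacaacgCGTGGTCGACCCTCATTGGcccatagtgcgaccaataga
Canx (chr11:50325780-50325838, minus strand): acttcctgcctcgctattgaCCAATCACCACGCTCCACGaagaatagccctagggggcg
Dnajc3 (chr14:118937807-118937865, plus strand): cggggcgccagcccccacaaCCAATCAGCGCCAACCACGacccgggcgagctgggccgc
Syvn1 (chr19:6046512-6046570, plus strand): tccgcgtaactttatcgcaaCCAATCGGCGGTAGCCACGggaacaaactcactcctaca
Herpud1, second form (chr8:94386357-94386407, plus strand): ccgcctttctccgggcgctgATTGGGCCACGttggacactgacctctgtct

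The 8 genes with the exact element had a median log2 fold change of 0.25, with 7 above 0. Without DMSO 2 that median was 0.12, with 5 above 0, and without DMSO 1 it was 0.37. In 5 of them, Hspa5, Hsp90b1, Calr, Canx and Dnajc3, each Aβ40 library was above both DMSO libraries, against 23.2% of all genes tested. In 1, Syvn1, both were below, against 21.9% of all genes tested. The other 20 genes in the table had a median of 0.03, with 10 above 0, 5 with both Aβ40 libraries above and 3 with both below. DMSO 2 was the lowest library in 4 of the 8 and in 9 of the 20. All but Syvn1 of the 8 are chaperones or folding enzymes, so the comparison with the 20 mixes element and role. The counts are a description, and the difference was not tested. Pdia4, with the highest log2 fold change, had no exact match to these letters in this window, and Hyou1, with the lowest, was not matched in the promoter table.

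ER-associated degradation pulls misfolded proteins out of the ER for destruction by the proteasome. Its 4 genes had a median log2 fold change of -0.39, and 3 of the 4 had both Aβ40 libraries below both DMSO libraries, against 21.9% of all genes tested. Sel1l encodes the adaptor that holds the ubiquitin ligase complex together (ENSMUSG00000020964, chromosome 12, 91806043 to 91849157). It stood at 93.3 and 79.5 CPM with DMSO and at 59.7 and 59.1 CPM with Aβ40, a log2 fold change of -0.54 (SE 0.17, 95% interval from -0.93 to -0.15, Benjamini-Hochberg adjusted p = 0.328 by edgeR). Whichever library was left out, the log2 fold change of Sel1l lay between -0.66, without DMSO 2, and -0.42, without DMSO 1.

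Edem1, a lectin that passes glycoproteins on to degradation, was at 239 and 247 CPM with DMSO and at 187 and 198 CPM with Aβ40. The libraries of each group lay close together, and the log2 fold change was -0.34 (SE 0.17). Syvn1, the ubiquitin ligase partner of Sel1l, was at 21.0 and 29.3 CPM with DMSO and at 16.9 and 20.0 CPM with Aβ40, a log2 fold change of -0.45 (SE 0.24), called lower without DMSO 1 (-0.67, edgeR, adjusted p = 0.0447) and at -0.20 without DMSO 2 (edgeR, adjusted p = 0.716). Syvn1 overlaps Mrpl49 on the other strand, which held 91.7% as many counts, so its level is uncertain. Herpud1, a scaffold of the same ligase complex and an ATF4 as well as an ATF6 target, stood apart at 135 and 134 CPM with DMSO and 141 and 145 CPM with Aβ40, a log2 fold change of 0.08 with a 95% interval from -0.28 to 0.45. The median of the 4 was between -0.48 and -0.26 whichever library was left out.

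The targets of ATF4 had a median log2 fold change of 0.12, with 5 of 8 above 0 and 0 called. Psat1, an enzyme of serine synthesis, was the highest (ENSMUSG00000024640, chromosome 19, 15904678 to 15947337). It stood at 53.7 CPM in each DMSO library and at 78.6 and 69.1 CPM with Aβ40, a log2 fold change of 0.46 (SE 0.17, 95% interval from 0.07 to 0.85, Benjamini-Hochberg adjusted p = 0.356 by edgeR). Psat1 stayed between 0.36 and 0.53 whichever library was left out. Ppp1r15a, the phosphatase subunit that reverses eIF2-alpha phosphorylation, was at 30.0 and 28.1 CPM with DMSO and 32.5 and 34.8 CPM with Aβ40. Its groups did not overlap, at a log2 fold change of 0.21 (SE 0.19).

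The other ATF4 targets overlapped between the groups. Asns, asparagine synthetase, was at 122 and 97.2 CPM with DMSO and 129 and 109 CPM with Aβ40. The tRNA synthetase genes Nars and Aars were at 0.17 (SE 0.18) and -0.04 (SE 0.20) on the log2 fold change scale. Sesn2, a stress-induced brake on growth signalling, was at 27.7 and 40.4 CPM with DMSO and 28.1 and 23.0 CPM with Aβ40, and its log2 fold change of -0.42 (SE 0.24) was -0.13 without DMSO 2. Trib3, a pseudokinase that damps ATF4, was scarce, at 7.99 and 5.70 CPM with DMSO and 7.96 and 6.85 CPM with Aβ40. Chac1, with between 30 and 66 counts per library, was at 1.61 and 3.55 CPM with DMSO and 2.52 and 1.67 CPM with Aβ40. Its gap within DMSO was wider than that of any other gene of the module.

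The response element bound by ATF4 with a C/EBP partner was searched as TGATGNAA on both strands. It was found for 5 of the 28 genes, Trib3, Chac1, Asns, Aars and Herpud1, against 3.97% of all promoters in the table. The sequences that lie before the start are shown. This leaves out the match of Trib3 and a second match of Aars, which lie after the start. A match that begins with TTG is the element on the other strand.

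Chac1 (chr2:119351029-119351076, plus strand): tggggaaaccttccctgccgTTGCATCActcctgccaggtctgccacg
Asns (chr6:7693210-7693252, minus strand): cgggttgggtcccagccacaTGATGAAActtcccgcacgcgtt
Aars (chr8:111033710-111033757, plus strand): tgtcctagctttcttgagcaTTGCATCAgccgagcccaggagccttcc
Herpud1 (chr8:94386297-94386344, plus strand): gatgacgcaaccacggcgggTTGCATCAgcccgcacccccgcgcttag

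The matches shown for Chac1, Aars and Herpud1 have the same 8 letters. Log2 fold changes of these genes were -0.30 (SE 0.53), -0.04 (SE 0.20) and 0.08 (SE 0.16), and differences among them were not tested. The 5 genes with the element had a median of 0.08 and the 23 without it 0.13.

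In most of the module, as in most genes tested, the DMSO libraries differed from each other by more than the groups did. The gap is between single libraries and the fold change between pairs of libraries, so the gap varies more by itself. In 22 of 32 genes the log2 gap between DMSO 2 and DMSO 1 was wider than the log2 fold change between the groups, against 55.6% of all genes tested. DMSO 2 was the lowest of the 4 libraries in 15 of the 32, or 46.9%, against 28.9% of all genes. It was the highest in 9 of the 32, or 28.1%, against 27.5% of all genes. The median gap, DMSO 2 minus DMSO 1, was -0.21 for the chaperones and -0.22 for the sensors and transcription factors, against 0.002 for all genes. For the degradation genes it was 0.019, for the ATF4 targets -0.047 and for the whole module -0.039. Genes with a gap under 0.1 in size and non-overlapping groups were Psat1, Edem1, Canx, Herpud1, Eif2ak3 and Ppp1r15a. Only Dnajb9 had such a gap with overlapping groups. A small gap itself makes non-overlap likelier, and the share of all genes within both limits was not counted. The list therefore does not mark larger changes: Herpud1 and Eif2ak3 were at log2 fold changes of 0.08 and 0.12.

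**Figure D4:**
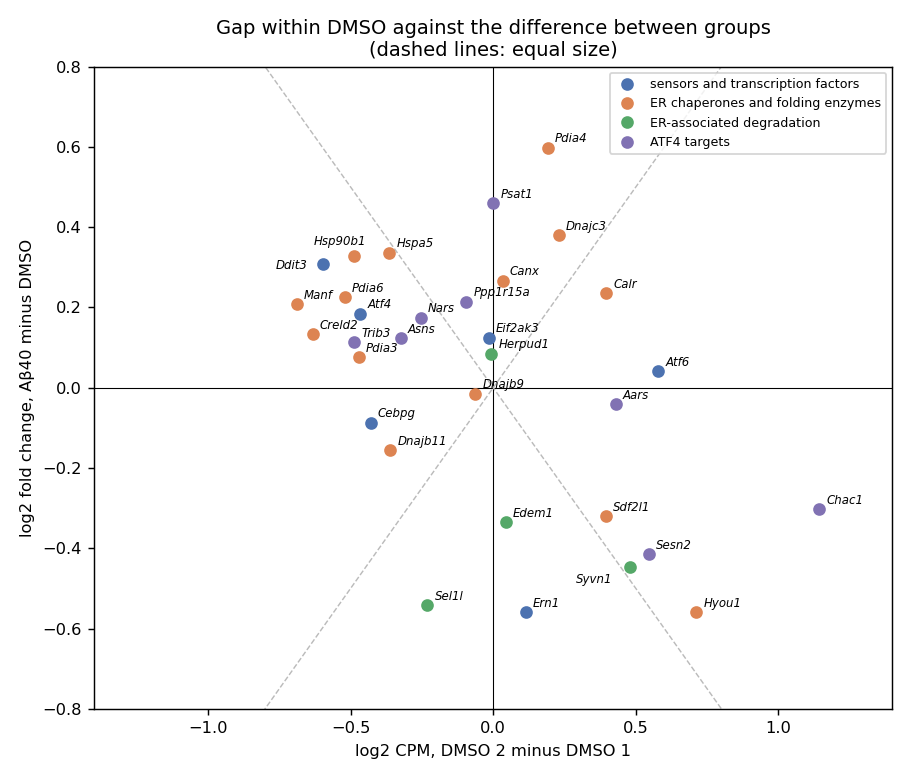
Log2 fold change between the groups against the log2 gap within DMSO (DMSO 2 minus DMSO 1), 1 point per gene, coloured by role; on the dashed lines both are of equal size. The axes share the DMSO libraries, so the points show sizes only; 22 of 32 genes lie in the left and right sectors, where the DMSO gap is the wider.

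Leaving out a DMSO library changed the calls. Without DMSO 1, 7 genes of the module were called, with Ddit3, Hspa5, Hsp90b1 and Manf higher and Hyou1, Syvn1 and Sesn2 lower, while 1276 of 14296 genes were called in all. Without DMSO 2, 2 were called, Pdia4 higher and Sel1l lower, among 1024 of 14292. These fits rest on 1 DMSO library, which is taken to vary like the Aβ40 pair. No gene of the module was called in both of these fits. Leaving out either Aβ40 library gave 0 calls, in the module and over all genes.

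Other genes of the pathway were likewise not called, with 0 past the threshold in each of 4 further lists (edgeR quasi-likelihood, Benjamini-Hochberg). Among 22 other signalling genes the median log2 fold change was 0.02, with 2 at an unadjusted p under 0.05, both higher. They were Eif2s1, the gene of eIF2-alpha itself, at 52.2 and 50.9 CPM with DMSO and 94.1 and 70.8 CPM with Aβ40, and Eif2b3, a subunit of its exchange factor, at 0.91 (SE 0.29). Xbp1, the target of IRE1, was at 116 and 138 CPM with DMSO and 140.2 and 129.9 CPM with Aβ40, a log2 fold change of 0.09 (SE 0.17). Among 45 other ER folding genes the median was 0.12, with 4 higher and 1 lower at an unadjusted p under 0.05. Ppib, a proline isomerase of the ER, was at 16.8 and 26.1 CPM with DMSO and 51.2 and 33.4 CPM with Aβ40, and Ssr4, of the translocon-associated complex, was at 0.46 (SE 0.17).

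Among 24 other degradation genes the median was -0.003, with 2 lower at an unadjusted p under 0.05. March6, an ER ubiquitin ligase of another branch, stood at 131 and 120 CPM with DMSO and 86.2 and 87.4 CPM with Aβ40, a log2 fold change of -0.53 (SE 0.16). Herpud2, a relative of Herpud1, stood at 88.2 and 86.4 CPM with DMSO and 60.6 and 66.4 CPM with Aβ40. Of the 24, 4 had each Aβ40 library below both DMSO libraries, against 21.9% of all genes, and 4 above, against 23.2%.

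Among 43 other ATF4 targets the median was -0.08, with 1 higher and 5 lower at an unadjusted p under 0.05. Slc7a11, which imports cystine and is also an NRF2 target, was at 338 and 296 CPM with DMSO and 165 and 149 CPM with Aβ40, a log2 fold change of -1.01 (SE 0.18, Benjamini-Hochberg adjusted p = 0.101 by edgeR). Slc7a5, which imports large neutral amino acids, was at -0.62 (SE 0.23), and Slc3a2, the shared heavy chain of both transporters, at -0.44 (SE 0.18). The 7 tested amino acid transporters of this list, grouped after their values were seen, had a median of -0.37, and in 5 of them both Aβ40 libraries lay below both DMSO libraries, against 15 of the 43 genes of the list and 21.9% of all genes. The 14 tRNA synthetases, Aars and Nars included, had a median of -0.003, with 7 above and 7 below 0. In serine synthesis, Psph followed Psat1 at 0.60 (SE 0.22), while Phgdh, the first enzyme, was at -0.14 (SE 0.18).

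**Figure D5:**
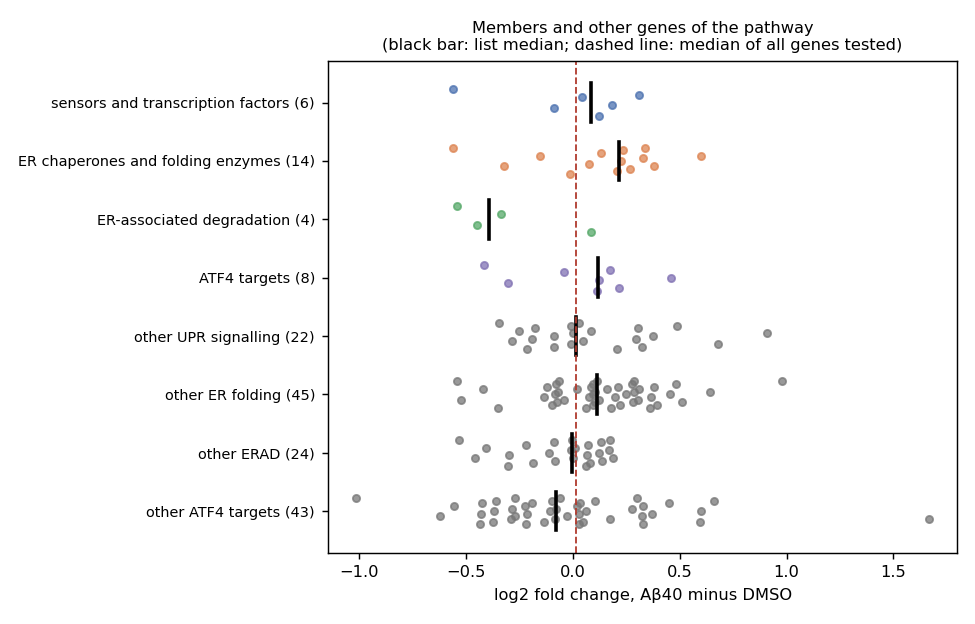
Log2 fold changes, Aβ40 minus DMSO, of the 32 genes by role and of 4 lists of other pathway genes, 1 point per gene; black bars are list medians and the dashed line is the median of all genes tested. Medians lie between -0.39 for the 4 degradation genes and 0.22 for the chaperones.

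Markers of other cells stood beside these values as follows. Summed CPM of the 13 B cell markers were 986 and 1146 with DMSO and 1748 and 1890.0 with Aβ40, with 12 of 13 genes above both DMSO libraries in each Aβ40 library, against 23.2% of all genes, and 5 called. Ighm was at a log2 fold change of 0.77 (SE 0.19), Cd74 at 0.40 (SE 0.21) and Fcrla at 1.98 (SE 0.19). Those of the 10 eosinophil markers were 1687 and 1405 with DMSO and 3684 and 3742 with Aβ40, with 1 called, and those of the 13 T and natural killer cell markers 76.2 and 73.6 with DMSO and 119.7 and 127 with Aβ40, with 1 called. The 11 monocyte and macrophage markers summed to 2696 and 2624 CPM with DMSO and 3527 and 3048 CPM with Aβ40, and the 9 erythroid ones to 5109, 2177, 3586 and 3724 CPM in DMSO 1, DMSO 2, Aβ40 1 and Aβ40 2, with 0 called in either list. Plasma cells carry an expanded ER, and of their 10 markers 8 passed the filter, with a summed 361 and 239 CPM with DMSO and 386 and 393 CPM with Aβ40. The median log2 fold change of these 8 was 0.46, with 6 above 0 and 2 below. In 5 of the 8 both Aβ40 libraries were above both DMSO libraries, against 23.2% of all genes. In that list Mzb1 was called higher (adjusted p = 0.0341 by edgeR). The most abundant ones, Jchain and Tnfrsf13b, were at 0.20 (SE 0.26) and 0.42 (SE 0.18). Those below 0 were Prdm1 at -0.23 (SE 0.29) and Fkbp11 at -0.35 (SE 0.55). Derl3 and the defining marker Tnfrsf17 did not pass the filter. Of promyelocyte markers, cells in which granule proteins are made, 0 of 7 were called, and their median was -0.004. The part of these cells in the values of Pdia4, Hspa5 or Sel1l was not tested.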

How the data were processed

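Per the submitters' processing notes, HISAT2 2.0.5, featureCounts 1.5.0-p3 and mm10 were used, without role or order. The sources used here do not name a strand setting or an annotation release. The authors deposited raw read counts per gene, used as they are, and FPKM. As checked on the values, the deposited FPKM equal counts divided by gene length and by a constant per library. Levels between genes are in FPKM and all tests use counts.

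Counts were fitted in R 4.3.3 with edgeR 4.0.16 (filterByExpr, TMM, glmQLFit and glmQLFTest, group as the only term, 2-sided, Benjamini-Hochberg over 13479 genes). There were 2 residual and 6.88 prior degrees of freedom, and the biological coefficient of variation was 0.210. Standard errors and intervals come from the same fit, and the script was tested on simulated data. The members and lists were chosen with earlier results of these data known. All 32 members are named. Of other pathway lists the rule names called genes, otherwise the 2 with the smallest p, and of marker lists, here those of B and plasma cells, the 2 most abundant and that with the smallest p. Xbp1, Slc7a5, Slc3a2, Phgdh and Tnfrsf17 fall outside it and were picked with values in view. So were Prdm1, Fkbp11, Derl3, C1qa, C1qb, C1qc, Mrc1 and Csf1r. The alternatives tried were scaling by median ratio or by library size, DESeq2 1.42.0, no filter, the replicate number as a block, and leaving out each library. Promoters are from RefSeq (GRCm38.p6), with 28 of 32 genes matched by symbol.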

Additional observations from a re-analysis of the deposited data

How the results depend on the processing

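Over all genes, edgeR called 17 genes, 17 higher and 0 lower. DESeq2 called 135 (102 higher, 33 lower), no filter on low counts gave 255 (185 higher, 70 lower) and the replicate block 27. Leaving out 1 library gave between 0 and 1276. In the module, the count of 0 held under every setting that kept the 4 libraries except a crossed pairing, and ran from 0 to 7 with 1 library left out. Same-numbered libraries deviated in opposite directions (correlation over genes -0.333 above 5 CPM), so crossed numbers were tried after the data were seen: 721 genes were called, 2 of them in the module. The samples share only a number, and the cause was not tested. With 1 library left out, the median ran from -0.041 to 0.30 for chaperones, from -0.48 to -0.26 for degradation genes and from 0.022 to 0.28 for ATF4 targets.

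Of 32 genes, 12 stayed above and 7 below 0 in every setting. With all libraries kept, 1 of 192 values changed sign, Atf6 at -0.028 by library size only. With 1 library left out, 18 of 128 did. The ranges were -0.22 to 0.35 for Atf6, -0.041 to 0.43 for Atf4, -0.30 to 0.14 for Cebpg, -0.34 to 0.034 for Dnajb11, -0.20 to 0.12 for Dnajb9, -0.15 to 0.33 for Pdia3, -0.023 to 0.51 for Pdia6, -0.16 to 0.48 for Creld2, -0.11 to 0.59 for Manf, -0.12 to 0.37 for Trib3, -0.77 to 0.36 for Chac1, -0.042 to 0.29 for Asns and -0.24 to 0.18 for Aars. Depth limits Chac1 and Trib3 most.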
